A study of Mus musculus with 40 samples.

Results

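Fatty acid oxidation and lysosomal lipid enzymes are represented here by 11 probes for 10 genes. The set was drawn up with earlier results of these data known. Its rule goes by symbol: the rows named ECI1, ALDH3A2, SCP2 and LIPA (Eci1, Aldh3a2, Scp2 and Lipa in mouse style), and every symbol beginning with Acad, Cpt1, Cpt2, Hadh or Ehhadh. That left Acadl, Acadm, Acadvl, Cpt1b, Hadh and Hadha beside the 4 named genes, out of 3045 probes for 2756 symbols in all. Aldh3a2 has 2 probes, and Cpt2 and Ehhadh were not analysed here. All 11 probes were among the 2541 that passed a filter on low counts.

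The samples were duodenum, the first stretch of small intestine, of male wildtype mice of the B6C3F1 cross, taken once exposure had lasted 28 days. Mice drank water with hexavalent chromium, Cr(VI), at 180 ppm (7 libraries), or ate diet with captan at 6000 or 12000 ppm (7 libraries each) or folpet at 6000 or 16000 ppm (7 libraries each), and 5 libraries came from controls. Captan and folpet are related fungicides that carry the same trichloromethylthio group, on a partly saturated ring in captan and on an aromatic ring in folpet. RNA from fixed, embedded sections was read with TempO-Seq, in which neighbouring probe pairs on a transcript are joined, amplified and counted. Nothing in the labels ties a library to its own mouse, so p-values here speak only of library-to-library spread, some of which may be technical. The sources used here give neither the ages of the mice nor whether separate controls were kept for diet and water.

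Fatty acids enter mitochondria through carnitine palmitoyltransferases and are shortened in repeated rounds by acyl-CoA dehydrogenases, enoyl-CoA hydratases, hydroxyacyl-CoA dehydrogenases and thiolases, while helper enzymes such as the isomerase Eci1 deal with unsaturated chains. Peroxisomes run a related pathway for very long and branched chains that ends with thiolases, and many of these genes are targets of the nuclear receptor PPAR alpha. Lysosomal acid lipase frees fatty acids and cholesterol from lipids delivered to the lysosome. Absorptive enterocytes of the duodenum take up dietary fat and are a main intestinal site of these pathways.

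Library totals ran from 1763440 to 7904819 counts. Sections differed in what they held: probes for pancreatic acinar enzymes, 14 of the 29 listed genes being measured and all 14 above 0 in every group, took 46.6% ± 22.7 of counts with Cr(VI), 14.6% ± 12.9 and 9% ± 16.5 with captan at 6000 and 12000 ppm, 15.8% ± 11.9 and 21.8% ± 9.33 with folpet at 6000 and 16000 ppm, and 41.6% ± 20.2 in controls (SD, n = 7 exposed and 5 control libraries). Of 21 listed enterocyte markers, 5 were measured (Fabp1, Fabp2, Apoa1, Apoc3 and Klf4) and all 5 were above 0 in every group. Their mean log2 level lay between 11.48 and 12.36 in every exposed library, against 11.04 to 11.57 in 4 control libraries and 9.48 in control library 5. That library had 2121824 counts, 1460 probes above 0 and 67.5% acinar counts, and calls against control are also given without it. In bulk tissue, fewer cells of a type and less RNA per cell cannot be told apart.

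Against control, the same 4 probes were called higher in each of the 5 exposed groups: Scp2, Aldh3a2 (its more abundant probe), Eci1 and Lipa. A call is a Benjamini-Hochberg adjusted p under 0.05 over all 2541 probes in edgeR's quasi-likelihood test. None was called lower, and the other 7 probes were not called in any of the 5 comparisons. The 4 of 11 called higher, 36.4%, stood beside 2.95% of all tested probes called higher with Cr(VI), 3.78% and 4.64% with captan at 6000 and 12000 ppm, and 4.6% and 7.91% with folpet at 6000 and 16000 ppm. Called lower were 2.99%, 1.38%, 1.53%, 1.61% and 4.68% of all probes in the same order. In either direction, 5.94%, 5.16%, 6.18%, 6.22% and 12.6% of all probes were called in the same 5 comparisons. The 4 called are the 4 genes named singly in the rule, and none of the 6 genes taken by the start of their symbol was called, so no test is drawn from the shares. The median log2 fold change of the 11 probes was 0.58, 0.36, 0.38, 0.28 and 0.32 in that order of exposures, beside −0.03, 0.01, 0.00, 0.00 and −0.05 over all tested probes. Those medians of the 11 probes take in the 4 genes named singly, so no test is drawn from them either. All 5 comparisons share the same control libraries, so they are not separate observations of the control level. When libraries were scaled by their totals alone instead of TMM, the number of the 11 probes called was 0, 1, 3, 0 and 1, and the median of all probes lay at −0.30, 0.33, 0.44, 0.28 and −0.05. With that scaling the log2 fold changes, in the same order, were 0.43, 1.01, 0.97, 0.83 and 0.44 for Scp2, 0.32, 1.16, 1.27, 1.08 and 1.38 for Aldh3a2, 0.66, 1.07, 1.23, 0.98 and 0.95 for Eci1 and 0.86, 1.31, 1.57, 1.25 and 0.89 for Lipa. They were smaller than with TMM for Cr(VI) in all 4 genes and larger for both captan doses and folpet at 6000 ppm, where calls were lost as well.

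**Figure D1:**
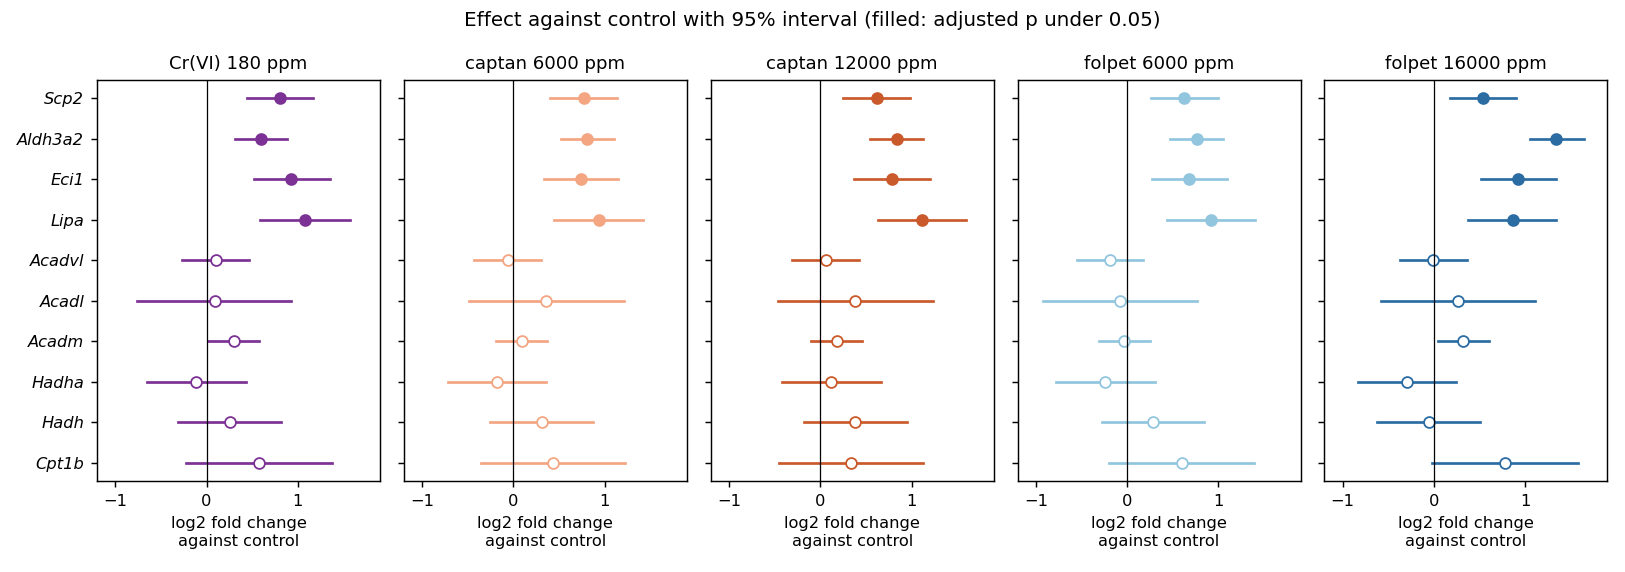
Log2 fold changes against control for 10 probes of the fatty acid oxidation and lysosomal lipid genes, with 95% confidence intervals from edgeR, in each exposed group (7 libraries each against 5 control libraries, the same in all comparisons). The 4 probes called higher lie to the right of 0 in every group, between 0.54 for Scp2 and 1.34 for Aldh3a2, both with folpet at 16000 ppm. The low-count second probe of Aldh3a2 is left out.

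The 250 bases before the transcription start are shown for the 4 genes called higher in every exposed group with all libraries, TMM scaling and no covariate. They come from RefSeq on build GRCm38.p6, which is not the mm9 build named for the deposited data, and run 5′ to 3′ on the strand of the gene. RefSeq promoter entries matched 9 of the 10 genes, with none for Cpt1b. Capitals mark AGGTCA, the core motif of nuclear receptors such as PPAR alpha, or CACGTG, the E-box of lysosomal and other transcription factors, searched on both strands.
Scp2, chr4:108118548-108118797, minus strand: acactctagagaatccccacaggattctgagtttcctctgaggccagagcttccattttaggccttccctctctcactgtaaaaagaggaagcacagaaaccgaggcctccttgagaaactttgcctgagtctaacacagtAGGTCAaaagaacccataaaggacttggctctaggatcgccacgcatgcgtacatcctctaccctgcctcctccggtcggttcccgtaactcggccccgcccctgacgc
Aldh3a2, chr11:61267187-61267436, minus strand: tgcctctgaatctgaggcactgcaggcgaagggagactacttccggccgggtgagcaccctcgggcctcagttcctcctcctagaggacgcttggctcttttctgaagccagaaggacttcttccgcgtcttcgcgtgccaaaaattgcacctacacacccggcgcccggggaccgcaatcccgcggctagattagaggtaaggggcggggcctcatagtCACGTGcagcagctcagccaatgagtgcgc
Eci1, chr17:24426433-24426682, plus strand: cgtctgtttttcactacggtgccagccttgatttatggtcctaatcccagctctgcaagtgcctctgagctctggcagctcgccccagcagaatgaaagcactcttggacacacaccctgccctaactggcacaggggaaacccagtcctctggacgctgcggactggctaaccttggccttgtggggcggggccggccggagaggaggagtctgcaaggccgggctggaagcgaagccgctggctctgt
Lipa, chr19:34527475-34527724, minus strand: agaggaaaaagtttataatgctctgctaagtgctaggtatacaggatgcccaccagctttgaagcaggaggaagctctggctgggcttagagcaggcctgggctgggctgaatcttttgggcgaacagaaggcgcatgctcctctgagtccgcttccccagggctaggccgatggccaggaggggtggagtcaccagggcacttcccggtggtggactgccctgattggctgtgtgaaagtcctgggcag
Scp2 held AGGTCA with its first base 109 bases before the start, and Aldh3a2 held CACGTG at 30 bases before it, while Eci1 and Lipa held neither. AGGTCA was in 14% of 32851 RefSeq promoter windows of the same 250 bases and in 3 of the 9 member windows (Acadm, Acadvl and Scp2), and CACGTG was in 6.02% and in 1 of 9. DR1, the direct repeat of AGGTCA with 1 base between, was in 0.0335% of all windows, and TGACNNNGC, a core of the antioxidant response element, was in 10.2%. Neither DR1 nor TGACNNNGC was in any of the 9 member windows. The letters AGGTCA form part of the repeat, and a match describes letters only.

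The peroxisomal and aldehyde-handling enzymes come first. Scp2 encodes sterol carrier protein 2 and the longer peroxisomal thiolase made from the same gene, which cleaves branched-chain and bile acid intermediates. In CPM, the lowest, median and highest Scp2 values were 1012, 1168 and 1454 with Cr(VI), 941, 1096 and 1497 with captan at 6000 ppm and 897, 992 and 1299 at 12000 ppm. With folpet they were 731, 1036 and 1266 at 6000 ppm and 859, 968 and 1062 at 16000 ppm. The 5 control libraries held 670.4, 889, 789.7, 765 and 205 CPM of Scp2. Cr(VI) and both captan groups lay wholly above the controls, and both folpet groups overlapped with the higher controls. Control library 5, at 205 CPM, was far below every other library. Log2 fold changes were 0.80 ± 0.18 with Cr(VI), 0.77 ± 0.18 and 0.62 ± 0.18 with captan at 6000 and 12000 ppm, and 0.62 ± 0.18 and 0.54 ± 0.18 with folpet at 6000 and 16000 ppm, with edgeR adjusted p-values of 0.00335, 0.00536, 0.0283, 0.0274 and 0.0402 in the same order (estimate ± SE). Without control library 5 the call was lost for captan at 12000 ppm (0.39, adjusted p = 0.0952), for folpet at 6000 ppm (0.39, adjusted p = 0.0953) and for folpet at 16000 ppm (0.31, adjusted p = 0.15). It was kept for Cr(VI) (0.58, adjusted p = 0.00739) and captan at 6000 ppm (0.54, adjusted p = 0.0173). At 16000 ppm of folpet the call was also lost without control library 1 and without folpet library 1, 4, 5, 6 or 7.

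Aldh3a2 encodes fatty aldehyde dehydrogenase, which oxidises long-chain aldehydes to fatty acids. In CPM, the lowest, median and highest Aldh3a2 values were 1593, 1754 and 2169 with Cr(VI), 1785, 2196 and 2422 with captan at 6000 ppm and 1482, 2345 and 2994 at 12000 ppm. With folpet they were 1655, 2212 and 2376 at 6000 ppm and 2891, 3051 and 3583 at 16000 ppm. The 5 control libraries held 1244, 1122, 1259, 1446 and 1096 CPM of Aldh3a2. In each of the 5 exposed groups every library lay above every control library, and control library 5 stood with the other controls here. Means were 1865 ± 227 CPM with Cr(VI), 2162 ± 232 and 2209 ± 557 with captan, 2083 ± 274 and 3129 ± 237 with folpet, and 1233 ± 139 in controls (SD, n = 7 exposed and 5 control libraries). Log2 fold changes were 0.60 ± 0.14 with Cr(VI), 0.81 ± 0.14 and 0.84 ± 0.14 with captan at 6000 and 12000 ppm, and 0.76 ± 0.14 and 1.34 ± 0.15 with folpet at 6000 and 16000 ppm, and the edgeR adjusted p-values were 0.00546, 0.000234, 7.5e-05, 0.000338 and 9.87e-09. None of these 5 calls was lost when any single library of the compared groups was left out. Scaled by library totals alone, Aldh3a2 was called with both captan doses and with folpet at 16000 ppm, and not with Cr(VI) (0.32, adjusted p = 0.758) or folpet at 6000 ppm (1.08, adjusted p = 0.0571). The second Aldh3a2 probe gave 594 counts over all 40 libraries and 0 in 18 of them, too few to set beside the first, with 95% intervals against control of −3.01 to 4.44 with Cr(VI) and −4.25 to 2.99 with folpet at 16000 ppm.

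**Figure D2:**
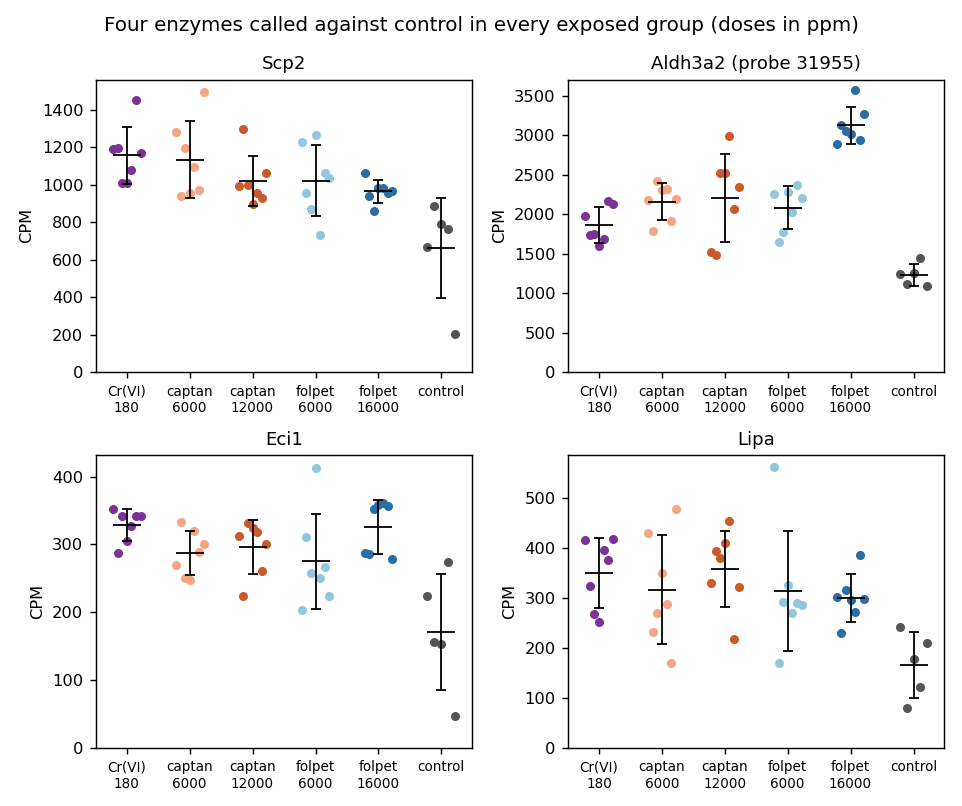
Normalised counts (CPM, linear axis from 0) of the 4 genes called higher, 1 point per library, with the mean and SD of each group (n = 7 exposed and 5 control libraries). Aldh3a2 libraries at 16000 ppm of folpet, from 2891 to 3583 CPM, lie above all those at 6000 ppm, and 1 control library is low for Scp2 and Eci1.

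In the mitochondrion, Eci1 was the 1 member called. It encodes an enoyl-CoA delta isomerase that shifts double bonds of unsaturated fatty acids so that beta-oxidation can go on. In CPM, the lowest, median and highest Eci1 values were 288, 341 and 353 with Cr(VI), 248, 289 and 333 with captan at 6000 ppm and 225, 313 and 332 at 12000 ppm. With folpet they were 203, 257 and 413 at 6000 ppm and 278, 352 and 362 at 16000 ppm. The 5 control libraries held 224, 155, 153, 275 and 46.8 CPM of Eci1. Cr(VI) and folpet at 16000 ppm lay wholly above the controls, and the other 3 exposed groups overlapped them. The controls were spread widely, and control library 5 was again the lowest. The log2 fold changes of Eci1 were 0.93 ± 0.21 with Cr(VI), 0.74 ± 0.21 and 0.79 ± 0.21 with captan at 6000 and 12000 ppm, and 0.68 ± 0.20 and 0.92 ± 0.21 with folpet at 6000 and 16000 ppm, with edgeR adjusted p-values of 0.0027, 0.0195, 0.0121, 0.0344 and 0.00125. Without control library 5 the call was lost for captan at 6000 ppm (0.51, adjusted p = 0.0732) and for folpet at 6000 ppm (0.45, adjusted p = 0.112). It was kept for Cr(VI) (0.70, adjusted p = 0.00545), captan at 12000 ppm (0.55, adjusted p = 0.0389) and folpet at 16000 ppm (0.69, adjusted p = 0.00322). The folpet call at 6000 ppm was also lost without control library 2 or 3 and without folpet library 2 or 4.

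The other mitochondrial members were not called against control in any exposed group. Acadvl, Acadl and Acadm open each round of beta-oxidation for very long, long and medium chains. Acadvl values were 386 to 610.1 CPM with Cr(VI), 267 to 589 CPM over the captan and folpet libraries, and 323 to 592 CPM in controls. Its log2 fold changes lay between −0.19 with folpet at 6000 ppm and 0.10 with Cr(VI), and the 95% intervals of those extremes were −0.55 to 0.17 and −0.27 to 0.46. In each exposed group the upper bound for Acadvl lay below the Aldh3a2 estimate. Acadl ranged from 3.04 CPM in a Cr(VI) library to 78.9 CPM in another, against 31.5 to 52.5 CPM in controls, and its intervals were wide, for example −0.46 to 1.23 with captan at 12000 ppm.

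Acadm had 379.9 ± 58.7 CPM with Cr(VI), 329 ± 39.5 and 349.7 ± 40.2 CPM with captan, 303 ± 39.4 and 385 ± 39.1 CPM with folpet, and 309 ± 65.8 CPM in controls. The Acadm log2 fold changes with Cr(VI), 0.30 ± 0.14, and with folpet at 16000 ppm, 0.32 ± 0.14, did not pass (edgeR adjusted p = 0.207 and 0.137). Hadha is the alpha subunit of the trifunctional protein, which hydrates and dehydrogenates long-chain intermediates, and Hadh does the dehydrogenase step for shorter chains. Hadha values were 556 to 1238 CPM with Cr(VI), 795 to 1490.4 CPM with captan at 12000 ppm, 469 to 1198 CPM with folpet at 16000 ppm and 627 to 1518 CPM in controls. Hadh values in the same groups were 682 to 1746, 911 to 1917, 602 to 1249.5 and, in controls, 499 to 1490.4 CPM. Both genes overlapped with the controls in every exposed group. Cpt1b, the muscle-type carnitine palmitoyltransferase at the mitochondrial entry step, was low throughout, at most 64.1 CPM in a folpet library at 6000 ppm and 25.8 CPM in a control library. With folpet at 16000 ppm its 7 libraries, 28.6 to 49.4 CPM, all lay above the controls, 10.9 to 25.8 CPM, but the log2 difference of 0.78 ± 0.40 was not called (edgeR adjusted p = 0.212).

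**Figure D3:**
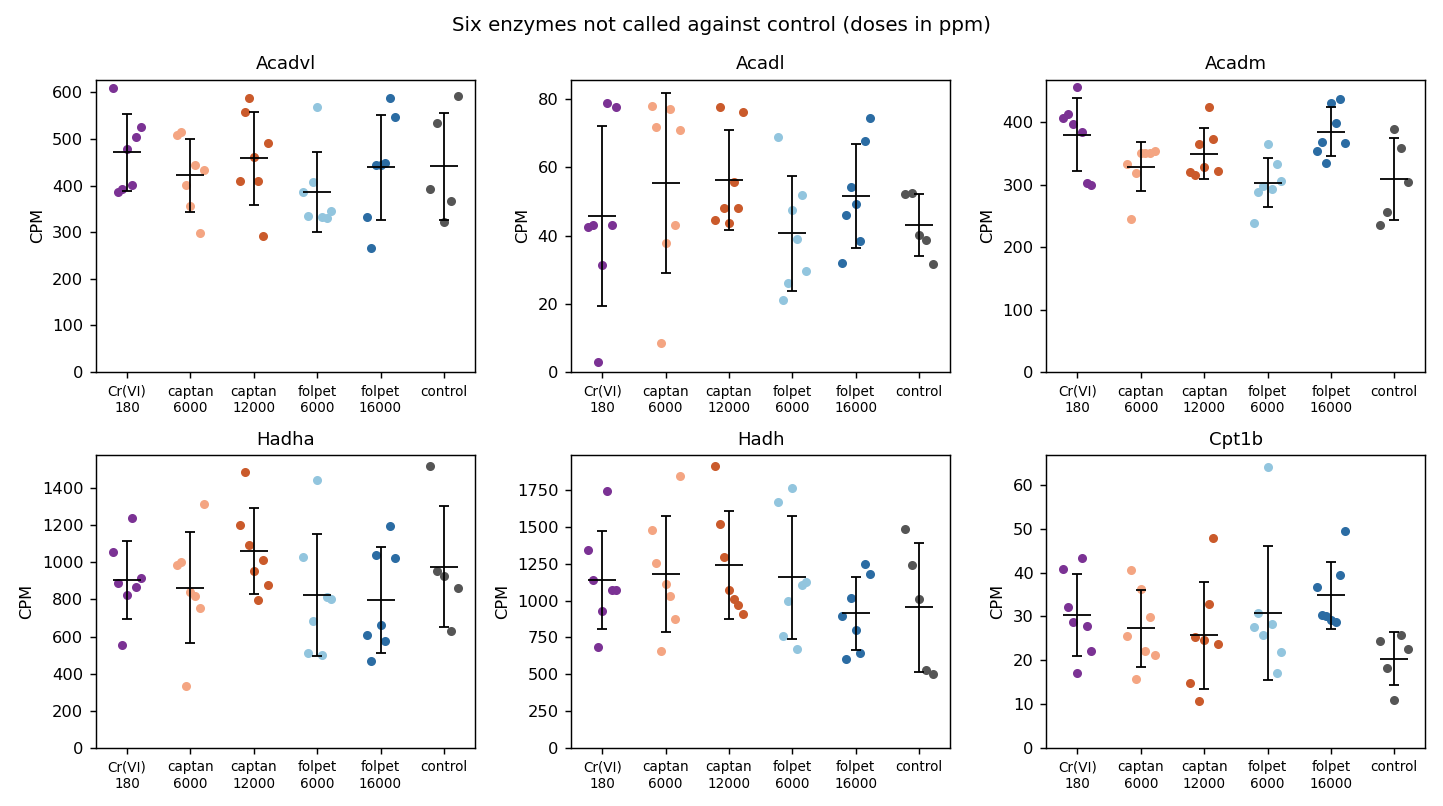
Normalised counts (CPM, linear axis from 0) of the 6 other enzymes, none called against control, 1 point per library with the mean and SD of each group (n = 7 exposed and 5 control libraries). Exposed and control libraries overlap in each panel, apart from Cpt1b with folpet at 16000 ppm, whose lowest library, 28.6 CPM, is above the highest control, 25.8 CPM.

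Lipa, lysosomal acid lipase, hydrolyses triglycerides and cholesteryl esters inside lysosomes. In CPM, the lowest, median and highest Lipa values were 253, 375 and 419 with Cr(VI), 169.8, 287 and 477 with captan at 6000 ppm and 219, 379.5 and 454 at 12000 ppm. With folpet they were 169, 289 and 561 at 6000 ppm and 229, 297 and 387 at 16000 ppm. The 5 control libraries held 241, 79.1, 178, 122 and 209 CPM of Lipa. Only the Cr(VI) libraries lay wholly above the controls, and the lowest library of every captan and folpet group fell within the control range. Its log2 fold changes were 1.08 ± 0.24 with Cr(VI), 0.94 ± 0.24 and 1.11 ± 0.24 with captan at 6000 and 12000 ppm, and 0.92 ± 0.24 and 0.86 ± 0.24 with folpet at 6000 and 16000 ppm, with edgeR adjusted p-values of 0.00307, 0.0112, 0.00199, 0.011 and 0.0124. No call of Lipa was lost when any single library of the compared groups was left out, and control library 5 was not low for this gene.

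Markers of several cell types moved with these calls. Only the enterocyte and acinar levels were entered in a fit, and the part of the other markers in the results was not tested. Of the 5 enterocyte markers, 3, 3, 4, 2 and 4 were called higher in the order Cr(VI), captan 6000 and 12000 ppm, folpet 6000 and 16000 ppm, and 2, 2, 3, 2 and 2 without control library 5, with none called lower by edgeR. The immune, smooth muscle and stroma markers that were called lay lower than in controls. Of 11 tested immune markers, 3, 2, 3, 2 and 7 were called lower and none higher, with median log2 fold changes of −1.01, −0.57, −0.68, −0.39 and −1.15. Of 6 smooth muscle markers 1, 2, 2, 2 and 3 were called lower, and of 9 stroma markers 0, 2, 2, 1 and 2, again with none higher. The 14 acinar markers had median log2 fold changes of 0.51, −2.18, −2.32, −1.86 and −1.34. Of these, 1 was called lower with folpet at 16000 ppm. Without control library 5 the numbers called lower were 3, 3, 5, 2 and 7 for immune, 2, 3, 0, 3 and 4 for smooth muscle and 0, 2, 2, 1 and 2 for stroma markers. No acinar marker was then called. The secretory epithelium, hepatocyte and adipocyte lists had 2 tested markers each. Secretory markers called lower numbered 0, 0, 0, 1 and 0 (1, 0, 0, 0 and 0 without that library). Hepatocyte markers called higher numbered 0, 1, 1, 1 and 0 (0, 0, 1, 1 and 0). Adipocyte markers called higher numbered 1, 0, 0, 1 and 1 (1, 0, 0, 1 and 0).

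With the mean log2 level of the 5 enterocyte markers as a covariate, a fit added after seeing the data, the number of the 11 probes called against control was 0, 0, 1, 1 and 1. The call that was kept with captan at 12000 ppm and with both folpet doses was Aldh3a2. Its log2 values were 0.49, 0.69, 0.71, 0.64 and 1.22 in the same order of exposures (edgeR adjusted p = 0.104, 0.0741, 0.0365, 0.0467 and 1.87e-05), against 0.60, 0.81, 0.84, 0.76 and 1.34 without the covariate. Lipa had 0.88, 0.71, 0.88, 0.70 and 0.64, none called, against 1.08, 0.94, 1.11, 0.92 and 0.86 without it. Eci1 had 0.57, 0.33, 0.33, 0.32 and 0.51, none called, and Scp2 0.21, 0.08, −0.14, −0.01 and −0.15, none called. In this fit Lipa and Aldh3a2 kept most of their size while calls were lost, whereas Scp2 lay near 0 or below with captan at both doses and with folpet. Control library 5 lay alone on the covariate, at 9.48. The other controls, at most 11.57, barely met the exposed range of 11.48 to 12.36, so the covariate and exposure are hard to separate.

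With the same covariate and without control library 5, the counts called were 1, 0, 0, 0 and 3. The call with Cr(VI) was Eci1 (adjusted p = 0.00625), and those with folpet at 16000 ppm were Aldh3a2 (1.22, adjusted p = 7.1e-05), Eci1 (adjusted p = 0.00339) and Hadh, which was lower at −1.02. Eci1 log2 values in this fit were 0.92, 0.77, 0.85, 0.68 and 0.95. They were larger than without that library and with no covariate, 0.70, 0.51, 0.55, 0.45 and 0.69. With all controls and no covariate they were 0.93, 0.74, 0.79, 0.68 and 0.92. Lipa values were 0.57, 0.26, 0.37, 0.31 and 0.22, smaller than without that library and with no covariate, 1.17, 1.03, 1.21, 1.01 and 0.95. Those of Scp2 were 0.34, 0.25, 0.06, 0.13 and 0.02, likewise smaller than 0.58, 0.54, 0.39, 0.39 and 0.31. Beside the covariate fit with all libraries, leaving out control library 5 made the values of Eci1 larger and those of Lipa smaller. Fabp1 and Fabp2 are themselves fatty acid carriers, so a covariate built on them also carries part of the fat-handling genes.

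With the share of acinar counts as a covariate, 4, 1, 1, 1 and 2 of the 11 probes were called. With both captan doses and folpet at 6000 ppm Eci1, Lipa and Scp2 lost their calls, and only Aldh3a2 was kept. With folpet at 16000 ppm Lipa and Scp2 lost theirs, and Aldh3a2 and Eci1 were kept. Log2 values were then 0.60, 0.78, 0.80, 0.72 and 1.32 for Aldh3a2 and 0.95, 0.70, 0.73, 0.64 and 0.89 for Eci1, close to those without it, and lower with captan and folpet for Lipa, 1.12, 0.59, 0.73, 0.59 and 0.62, and Scp2, 0.86, 0.62, 0.44, 0.47 and 0.44. Without the 5 libraries over 50% acinar counts (2 control and 3 Cr(VI)), 1, 2, 3, 2 and 2 were called. Scp2 then lost its call in every exposed group, and Lipa kept its call only with captan at 12000 ppm. With Cr(VI) Aldh3a2 also lost its call, and Eci1 alone was kept. Log2 values were 1.14, 0.94, 1.13, 0.94 and 0.88 for Lipa and 0.62, 0.55, 0.40, 0.40 and 0.33 for Scp2. With only the 2 compared groups in each fit 2, 1, 2, 1 and 3 were called, although the log2 values of Scp2, 0.84, 0.76, 0.64, 0.62 and 0.57, and Eci1, 0.97, 0.74, 0.81, 0.68 and 0.96, moved little.

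**Figure D4:**
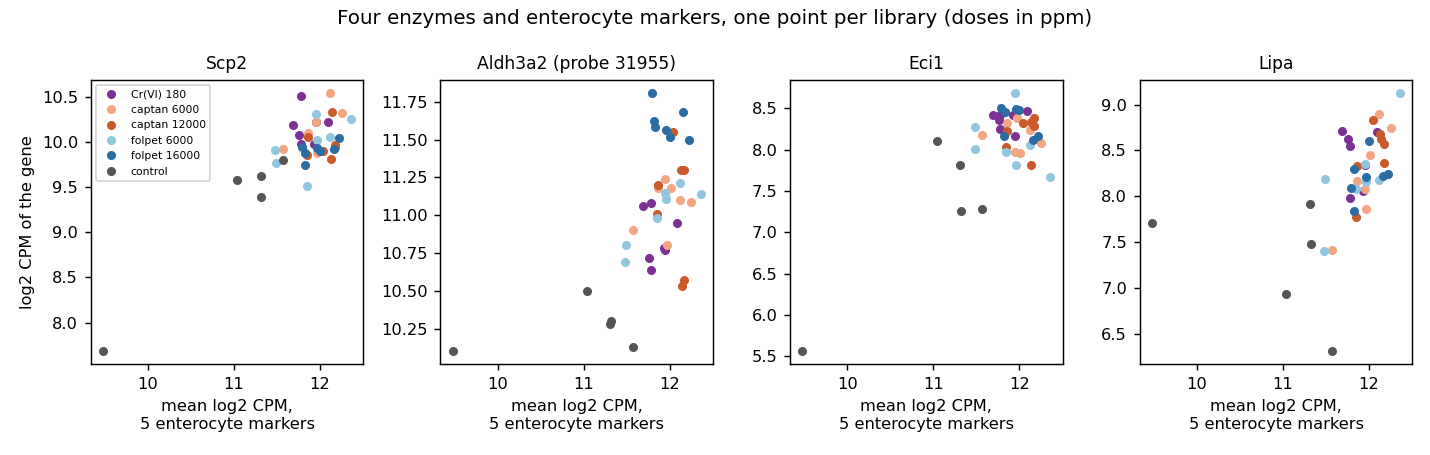
Mean log2 CPM of 5 enterocyte markers (horizontal axis) against log2 CPM of the 4 genes called higher (vertical axis), 1 point per library of the 40, coloured by group. Control library 5 lies alone at the left, at 9.48, and is far below every other library for Scp2 and Eci1 but not for Aldh3a2 or Lipa, while the exposed libraries lie between 11.48 and 12.36.

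Captan and folpet were compared at the dose they share, 6000 ppm, as 1 pair, with p-values adjusted over all 2541 probes. None of the 11 probes was called, beside 0.157% of all probes (4, all lower with captan). In edgeR 0 of the 11 reached an unadjusted p under 0.05, and DESeq2 called 0. The log2 differences of captan minus folpet were 0.15 for Scp2 (95% interval −0.18 to 0.48) and 0.05 for Aldh3a2 (−0.21 to 0.31). They were 0.06 for Eci1 (−0.31 to 0.43) and 0.02 for Lipa (−0.41 to 0.44). At this dose no difference between captan, with the partly saturated ring, and folpet, with the aromatic ring, was detectable in the 4 genes, and differences within those intervals could have been missed. The higher doses, 12000 and 16000 ppm, differ and were not set against each other.

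With captan, going to 12000 ppm from 6000 ppm moved none of the 11 probes past the threshold, and 0% of all probes were called. In edgeR 0 of the 11 and 148 of all probes had an unadjusted p under 0.05, and DESeq2 called 0 of all probes. With folpet, 1 of the 11 was called between 16000 and 6000 ppm, beside 1.73% of all probes (44) in either direction with 0.59% higher and 1.14% lower. That probe was Aldh3a2, with 3129 ± 237 CPM at 16000 ppm and 2083 ± 274 CPM at 6000 ppm (SD, n = 7 each), and every library of the higher dose lay above every library of the lower. Its log2 difference was 0.59 ± 0.13 (95% interval 0.33 to 0.85, edgeR adjusted p = 0.00635). Scaled by library totals alone, that difference was 0.30 (adjusted p = 0.967). Acadm differed by 0.34 ± 0.13 between the folpet doses, which did not pass (adjusted p = 0.217).

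Cr(VI) was also set against the higher dose of each fungicide, where agent, dose and route all differ. Against captan at 12000 ppm 0 of the 11 probes were called by edgeR or DESeq2, beside 4.64% of all probes in either direction (1.5% higher and 3.15% lower), and 0 of the 11 had an unadjusted p under 0.05 in edgeR. Against folpet at 16000 ppm 1 of the 11 was called, beside 7.32% of all probes in either direction (1.97% higher and 5.35% lower). That was Aldh3a2 again, with 1865 ± 227 CPM with Cr(VI) and 3129 ± 237 CPM with folpet (SD, n = 7 each). It was lower with Cr(VI) in all 7 libraries, by a log2 difference of −0.75 ± 0.13 (edgeR adjusted p = 7.92e-05).

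Other genes of these pathways were counted from 3 lists. Of 12 tested genes for fatty acid uptake, activation and beta-oxidation, those called higher numbered 3 with Cr(VI), 1 and 2 with captan at 6000 and 12000 ppm, and 0 and 3 with folpet at 6000 and 16000 ppm, while 1 was called lower with captan at 12000 ppm and 1 with folpet at 16000 ppm. Where 0 were called, with folpet at 6000 ppm, edgeR gave 4 of the 12 an unadjusted p under 0.05. The list's median log2 fold changes were 0.38, 0.42, 0.33, 0.30 and 0.29, beside the medians of all probes given above. Etfb, a subunit of the flavoprotein that takes electrons from acyl-CoA dehydrogenases, had 489.6 ± 41.2 CPM with Cr(VI), 585 ± 59.9 CPM with folpet at 16000 ppm and 309.6 ± 140.2 CPM in controls, log2 rises of 0.66 ± 0.20 and 0.91 ± 0.20 (adjusted p = 0.0403 and 0.00119). Acaa1a, the peroxisomal 3-ketoacyl-CoA thiolase, rose by 0.50 ± 0.15 with Cr(VI) and 0.54 ± 0.15 with captan at 6000 ppm (adjusted p = 0.0351 and 0.0188). Fabp1 and Fabp2, the liver-type and intestinal fatty acid binding proteins of enterocytes, made up the other calls in the higher direction and are also in the enterocyte list. The fatty acid transporter Slc27a1 fell with captan at 12000 ppm (−1.48 ± 0.40, adjusted p = 0.0178), and the peroxisomal and reticular acyl-CoA synthetase Slc27a2 fell with folpet at 16000 ppm (−0.48 ± 0.17, adjusted p = 0.0458). Without control library 5, those of the 12 called higher numbered 0, 0, 1, 0 and 2 and those called lower 0, 0, 0, 0 and 1. Etfb was then at 369.5 ± 48.2 CPM in the 4 other controls and was called with folpet at 16000 ppm (0.66, adjusted p = 0.00104) but not with Cr(VI) (0.41, adjusted p = 0.0847). The calls of Acaa1a, Fabp1 and Slc27a1 were lost without that library, while Slc27a2 (−0.62, adjusted p = 0.0073) and Fabp2 at the higher dose of each fungicide were kept.

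Of 12 tested genes for omega oxidation, ketone bodies and PPAR targets, 3, 1, 1, 3 and 2 were called higher in the order Cr(VI), captan 6000 and 12000 ppm, folpet 6000 and 16000 ppm, and none was called lower. In edgeR 4, 3, 4, 4 and 3 of them had an unadjusted p under 0.05 in either direction, and 4, 3, 3, 3 and 2 of these were higher than in controls. Creb3l3, an intestinal and hepatic transcription factor of lipid metabolism, was called in all 5, with 4259 ± 426 CPM with Cr(VI), 3417 ± 370.3 CPM with folpet at 16000 ppm and 1874 ± 549 CPM in controls. Ppara, the receptor PPAR alpha itself, rose with Cr(VI) (0.86 ± 0.20, adjusted p = 0.00406) and folpet at 6000 ppm (0.88 ± 0.20, adjusted p = 0.0028). Cidec, a lipid droplet protein that is also on the adipocyte list, rose with Cr(VI) and both folpet doses, by 0.99 ± 0.25, 1.05 ± 0.26 and 0.77 ± 0.25. The list's median log2 fold changes were 0.41, 0.36, 0.13, 0.17 and 0.12. Without control library 5, those called higher numbered 4, 1, 2, 3 and 2. Creb3l3 was still called in all 5 and Ppara in the same 2 groups, and the call of Cidec was lost with folpet at 16000 ppm (0.58, adjusted p = 0.123). Pparg, another PPAR receptor, was called only without that library. Its edgeR calls were with Cr(VI) (0.90, adjusted p = 0.0468), captan at 12000 ppm (0.93, adjusted p = 0.0406) and folpet at 16000 ppm (0.87, adjusted p = 0.0335).

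Of 15 tested genes for lysosomal enzymes and lipid handling, 1, 3, 2, 2 and 2 were called higher in the same order, and Gaa, lysosomal acid glucosidase, was called lower with folpet at 16000 ppm (−0.90 ± 0.31, adjusted p = 0.0446). Lamp1, a main glycoprotein of the lysosomal membrane, was called in all 5, by log2 rises of 0.57 ± 0.14, 0.60 ± 0.14, 0.46 ± 0.14, 0.71 ± 0.14 and 0.48 ± 0.14. Ces1g, a carboxylesterase that is not a lysosomal enzyme but sits on this list for lipid handling, rose with both captan and both folpet doses, with 573 ± 245 and 729 ± 539 CPM with captan, 908 ± 244 and 1347 ± 198 CPM with folpet, and 62.0 ± 63.6 CPM in controls. The mean with Cr(VI) was 46.3 ± 19.3 CPM, and Ces1g was not called there. Arsa, the lysosomal arylsulfatase A, rose with captan at 6000 ppm (2.0 ± 0.59, adjusted p = 0.0325). Its level was low, at 12.8 ± 12.1 CPM in the 4 controls other than library 5 (SD). The list's median ran from −0.36 with folpet at 16000 ppm to 0.14 with captan at 6000 ppm. Without control library 5, those of the 15 called higher numbered 1, 2, 1, 2 and 1 and those called lower 0, 0, 0, 0 and 2. Lamp1 was then not called with captan at 12000 ppm (0.32, adjusted p = 0.158) or folpet at 16000 ppm (0.34, adjusted p = 0.0852), nor Arsa with captan at 6000 ppm (1.72, adjusted p = 0.0708), while the calls of Ces1g and Gaa were kept. The other gene called lower was Ctss, with folpet at 16000 ppm (−0.61, edgeR adjusted p = 0.0175), which was not called with all libraries.

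For the 4 genes named by the rule, the probes whose centred group means over the 6 groups lay closest were found by root mean square difference on the log2 scale among 2530 other tested probes. Nearest to Eci1 were Hsd17b11, at 0.0541, Fas at 0.0896 and Polr2i at 0.0969, beside a median probe at 0.511. Nearest to Aldh3a2 were Vat1 at 0.0608, Prdx1 at 0.0665 and Srp14 at 0.0907, with a median of 0.515. Scp2 was closest to Zw10, Spint1 and Fat1, at 0.0950 to 0.108, and Lipa to Ptpn6, Hsd17b11 and Clk2, at 0.0895 to 0.0986. The 6 points share their libraries, and this is a description of likeness only.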

How the data were processed

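The authors deposited raw counts, 1 whole number per probe and library, for 40 TempO-Seq libraries; neither values nor header point to normalisation. Tools listed in the submitters' processing notes are bcl2fastq 2.17.1.14 and Bowtie (version not given), with mouse build mm9 and no role for each. Probe positions, strand and any removal of low counts are likewise not given. Of all values, 28.5% were 0, while 1.01% of those above 0 lay from 1 to 5, so a 0 says little about a low transcript, and a probe may also detect near-identical transcripts. Per the labels' protocols, sections were scraped into lysis buffer. Columns were matched to samples by title and groups taken from the labelled treatment, and replicate numbers follow accession order. No pair of libraries was identical.

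The model was fitted with edgeR 4.0.16 under R 4.3.3: filterByExpr (minimum count 10, minimum total 15), TMM scaling, and a robust quasi-likelihood fit with 1 mean per group over all 40 libraries (34 residual degrees of freedom). Tests were 2-sided, with Benjamini-Hochberg adjustment over the probes tested in each of 10 comparisons. Standard errors were approximated from the log2 fold change and the F statistic. CPM values were scaled by TMM, and a prior count of 2 was added for log2 CPM. The script was run on simulated counts in which chosen probes were changed by known folds. Differing acinar shares were not simulated, and no result here rests on that run. Alternatives were DESeq2 1.42.0, its size factors in edgeR, library totals, no filter, an acinar covariate, only the compared groups and no library above 50% acinar counts. Each library of the compared groups was also left out in turn. Added after seeing the data were an enterocyte covariate and the gene and marker lists without control library 5.

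The members, the gene and marker lists and the tests were chosen with earlier results of these data known, and a gene that the rule selects and a gene of the other lists are not reported here. Values are given for every member called in a comparison and for Eci1, Aldh3a2, Scp2 and Lipa; of the other lists, up to 6 called genes per comparison with control with the smallest p were named. Counting error is not the only error, since PCR copies are not told apart.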

Additional observations from a re-analysis of the deposited data

Results flagged for a closer look

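Within-group outliers were looked for in 66 groups of values, 11 probes in 6 groups, with Dixon's test at its 95% critical value, and 6 were found; chance alone gives about 5% of groups. All values are log2 CPM. Scp2 was low in control library 5, at 7.68, with the next library at 9.39 and the highest at 9.80. Acadl was low in captan 6000 ppm library 3, at 3.14, and in Cr(VI) library 3, at 1.79, where the next libraries were at 5.26 and 4.99. Hadha was low in captan 6000 ppm library 3, at 8.38, beside 9.55 for the next. Acadm was low in captan 6000 ppm library 2, at 7.94, beside 8.31. Acadvl was high in folpet 6000 ppm library 4, at 9.15, beside 8.68. Aldh3a2 differed between the Cr(VI) and the folpet 16000 ppm groups by a log2 difference of −0.75, a test of the difference itself.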

How the results depend on the processing

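Counts of the 11 probes called against control are given in the order Cr(VI), captan 6000 and 12000 ppm, folpet 6000 and 16000 ppm, each against 4 as reported. DESeq2 and no filter gave 4 each, and DESeq2 size factors in edgeR 4, 4, 4, 4 and 3. Library totals alone gave 0, 1, 3, 0 and 1, the acinar covariate 4, 1, 1, 1 and 2, no library over 50% acinar 1, 2, 3, 2 and 2, only the compared groups 2, 1, 2, 1 and 3, the enterocyte covariate 0, 0, 1, 1 and 1, and that covariate without control library 5 1, 0, 0, 0 and 3, the last including Hadh, lower at −1.02 with folpet at 16000 ppm. The covariate models and the smaller fits have fewer residual degrees of freedom or samples, and what else moved the calls was not tested. With the enterocyte covariate Scp2 changed sign with captan at 12000 ppm (−0.14) and with folpet at 6000 and 16000 ppm (−0.01 and −0.15). Leaving out 1 library of the compared groups gave 4 to 4, 3 to 4, 3 to 4, 2 to 4 and 3 to 4. The folpet dose step had 1 call and 0 with library totals. Cr(VI) against captan at 12000 ppm had 0 and, with library totals, 1 (Aldh3a2). Cr(VI) against folpet at 16000 ppm had 1, and 2 with the acinar covariate (Hadh added) or the enterocyte covariate (Scp2 added). Over all probes, calls higher and lower were 75 and 76, 96 and 35, 118 and 39, 117 and 41, and 201 and 119 with TMM. They were 82 and 76, 85 and 54, 102 and 49, 100 and 53, and 167 and 151 with DESeq2 size factors and 3 and 11, 32 and 0, 75 and 4, 50 and 1, and 42 and 15 with library totals. Over all alternatives the total ran from 14 to 240 for Cr(VI) (151 as reported), 3 to 213 and 19 to 261 for captan (131 and 157), and 45 to 225 and 57 to 411 for folpet (158 and 320). It ran from 9 to 113 for the folpet step (44), 1 to 13 for captan against folpet (4), 0 to 1 for the captan step (0), 44 to 504 for Cr(VI) against captan (118) and 66 to 265 against folpet (186). No paired analysis was possible because replicate numbers follow accession order and pair nothing. Depth limits the second Aldh3a2 probe, with 594 counts in all and 0 in 18 libraries.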
